A study of Rattus norvegicus with 10 samples.

Results

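The genes described here are 40 genes of cell division, from the cyclins that time the cell cycle to the enzymes that supply nucleotides for DNA synthesis, measured in the submandibular gland of hypertensive and control rats. They are a list of symbols, and no threshold on a measured value was used to pick them. A gene was measured where a probe carried a RefSeq accession that names it, and its brightest probe stood for it. This held for 35 of the 40, among 15168 genes named and 14711 tested on the arrays. Melk, Bub1b, Mki67, Top2a and Mcm5 were named by no probe and have no value here. The labels give 5 male rats of the spontaneously hypertensive strain (SHR), inbred rats that develop high blood pressure, and 5 male rats of the Wistar Kyoto strain (WKY), the control. All were 14 weeks old, and the labels name no treatment, transgene or deletion in either strain. RNA of each gland was labelled with Cy3 and read on 1 Agilent array per rat, named below by strain and the numbers of its title, such as SHR 3-3.

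A dividing cell copies its DNA, separates the copies on a spindle of microtubules and pinches apart. Cyclins switch on cyclin-dependent kinases to start each step, a checkpoint holds the chromosomes together until every one is attached, and transcription factors of the E2F and FOXM1 type turn on most of these genes only in cells that are in the cycle. Few cells of adult salivary gland are known to divide, and in whole tissue these messengers may come from any cell type in the gland, immune cells included.

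Values are log2 processed intensities minus the 75th percentile of the same array, so that 0 is that percentile and 1 unit is 2-fold. Levels of different probes are not compared. Over the 10 arrays the 75th percentile ranged from 333 to 648 intensity units, and 94.8% to 97.7% of spots were well above background. SHR 3-3 had the lowest value of both. The labels name no slide or batch. From the scan times in the file headers, SHR 2-3, 3-1, 3-3 and 3-4 were taken as 1 scan pass, called slide 1, SHR 2-1 with WKY 1-5, 4-1 and 4-2 as slide 2, and WKY 1-2 and 1-3 as slide 3, which is an inference. Since slide 2 alone holds both strains, every value below with the slide as a block sets 1 rat, SHR 2-1, against WKY 1-5, 4-1 and 4-2, and an effect of the slide cannot be told apart from that rat. Markers of acinar cells (Aqp5, Slc12a2), duct cells (Klk1, Egf) and myoepithelial cells (Acta2) were well above background on all 10 arrays. Of the 35 cell division genes, 33 were well above background on all 10 arrays, Ccnb2 on 9 and Ccne2 on 8.

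None of the 35 cell division genes passed the threshold in either direction (limma, Benjamini-Hochberg adjusted p below 0.05), and the smallest adjusted p was 0.0606. Over all genes tested 1.51% were called higher in SHR and 2.85% lower, 222 and 419 genes. Without adjustment, 1 cell division gene was higher at p below 0.05 (Kif23) against 8.05% of all genes, and 3 were lower (Ccne1, Tk1, Foxm1) against 12.3%. The strains did not overlap for 1 gene higher in SHR, Kif23, where 3.14% of all genes had such a separation, and for 0 genes lower in SHR, where 4.11% had it. With 1 of 35 and 0 of 35, both counts of separated genes were near that background. The p-values measure the spread between arrays of different rats of a strain.

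The differences were also small. The largest was 1.41-fold, and the 95% confidence interval of every one of the 35 lay within 2-fold up or down, as it did for 95.1% of all genes tested. For 23 of the 35 the interval lay within 1.5-fold, a share of 65.7% against 79.2% of all genes. In this fit a change beyond 2-fold between these strains therefore lay outside the interval for each cell division gene measured. A change of 1.5-fold lay inside it for 12. The fit has no term for the slide, so the intervals do not cover an effect of the slide.

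Most values leaned the same way without passing a test. The log2 difference, SHR minus WKY, was negative for 27 of the 35 and positive for 8, with a median of −0.11 and a range from −0.50 to 0.40. Over all genes tested the median was −0.02 and 46.6% of values were positive. The lean varied with the scaling and with the arrays compared. Of the 35, 22 were negative after normexp correction plus quantile normalisation, 21 after quantile normalisation alone, 23 where arrays were scaled to their medians and 21 in the authors' values. Blocking on the slide, which leaves SHR 2-1 against 3 WKY arrays, gave 13 negative values of 35 and a median of 0.11. SHR 2-1 had 28 of the 35 genes above the SHR mean. Without SHR 3-3 the number was 22 and the median −0.05. The same scalings moved the share of lower genes among all calls from 65.4% to 55.6%, 50.9%, 53.5% and 50.5%, in that order. In whole gland, fewer dividing cells and less messenger per cell cannot be told apart.

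**Figure D1:**
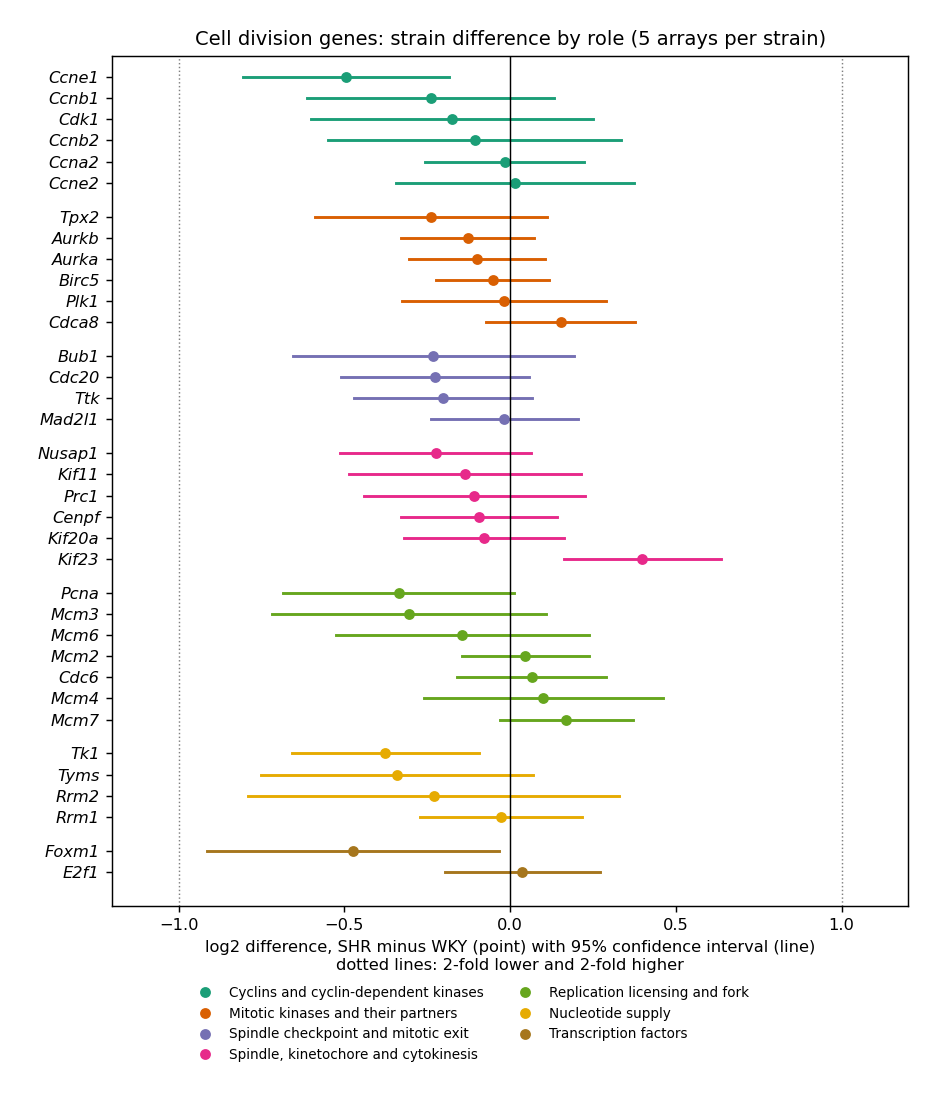
Log2 difference, SHR minus WKY, of each of the 35 cell division genes measured (points) with its 95% confidence interval (lines), grouped by role, from limma on 5 arrays per strain; dotted lines mark 2-fold. All intervals lie inside the dotted lines, Kif23 is the only gene whose interval lies wholly above 0, and those of Ccne1, Tk1 and Foxm1 lie wholly below it.

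The 2 genes with the lowest unadjusted p were Kif23 and Ccne1, and the sequence just upstream of each is shown so that the elements known to time cell division genes can be seen in it. Each run covers 250 bases before to 50 after the gene start, from RefSeq on build GRCr8, in the direction of the gene. Kif23 lies at chr8:71320535-71320834 on the minus strand and Ccne1 at chr1:99927860-99928159 on the minus strand. Cdk1, at chr20:19265043-19265342 on the plus strand, was added after its sequence had been read, because it shares a stretch with Kif23. Capitals mark the motifs searched on both strands, which were the CCAAT box (CCAAT, read as ATTGG on the other strand), the CHR element (TTTGAA or TTCGAA) and E2F sites (TTTGGCGC, TTTCCCGC, TTTGCCGC or TTTCGCGC). None of the 3 kinds of motif overlaps another in these windows.
Kif23: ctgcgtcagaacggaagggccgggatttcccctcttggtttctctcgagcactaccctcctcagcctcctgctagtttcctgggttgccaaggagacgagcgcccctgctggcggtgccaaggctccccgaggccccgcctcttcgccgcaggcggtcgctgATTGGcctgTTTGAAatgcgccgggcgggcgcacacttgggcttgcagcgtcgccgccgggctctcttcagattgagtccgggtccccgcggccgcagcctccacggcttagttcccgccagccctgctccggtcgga
Ccne1: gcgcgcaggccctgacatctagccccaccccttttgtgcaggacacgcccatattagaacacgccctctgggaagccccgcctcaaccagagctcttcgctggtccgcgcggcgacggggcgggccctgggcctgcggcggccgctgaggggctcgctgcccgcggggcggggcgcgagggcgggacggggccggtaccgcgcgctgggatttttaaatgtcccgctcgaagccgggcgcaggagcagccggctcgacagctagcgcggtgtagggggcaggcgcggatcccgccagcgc
Cdk1: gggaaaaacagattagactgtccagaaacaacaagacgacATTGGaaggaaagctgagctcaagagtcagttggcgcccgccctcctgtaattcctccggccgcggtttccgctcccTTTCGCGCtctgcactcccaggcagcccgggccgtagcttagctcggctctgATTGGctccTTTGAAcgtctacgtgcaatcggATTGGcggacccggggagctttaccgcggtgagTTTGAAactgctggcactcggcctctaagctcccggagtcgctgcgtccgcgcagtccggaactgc

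In the Kif23 window a CCAAT box starts at base 163 and a CHR element at base 172, 88 and 79 bases before the gene start. Cdk1 holds the same pair at bases 170 and 179, besides 2 further CCAAT boxes, another CHR element and an E2F site at base 118. With the first form of the CHR element, the letters of the pair and its gap, ATTGGNNNNTTTGAA, occurred in 2 of the 31 cell division genes with a window (6.45%) and in 13 of all 33469 windows (0.0388%). With either form it occurred in 3 of the 31 (9.68%), Top2a being the third with a CCAAT box at base 90 and TTCGAA at base 99, and in 20 of all windows (0.0598%). This stretch was looked for after the sequences had been read. The 2 genes are Kif23 and Cdk1, from whose windows it was taken, so their share is no test of it. The Ccne1 window held none of the letters searched, which says nothing of which factors bind there.

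Across the 31 cell division genes with a RefSeq window, a CCAAT box was present in 22 (71.0%, against 37.5% of all windows), a CHR element in 18 (58.1%, against 19.7%) and an E2F site in 7 (22.6%, against 2.14%). Both a CCAAT box and a CHR element were found in 15 (48.4%, against 7.95%), and none of the motifs in 5 (16.1%, against 49.5%). These matches describe the sequence and are neither binding nor a cause. The comparison with all windows, here and for the pair above, was not matched for gene type or base composition. Ccna2, Ccne2, Aurkb, Tpx2, Mcm4, Rrm2, Foxm1, E2f1 and Cdc6 had no window in the table used.

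Among the cyclins and their kinase, 5 of 6 values were negative, with a median log2 difference of −0.14, and none passed the test. Ccne1 encodes cyclin E1, which drives entry into DNA synthesis. Its values were −2.89, −2.73, −3.22, −3.41 and −2.84 on SHR 2-1, 2-3, 3-1, 3-3 and 3-4, and −2.47, −2.36, −2.71, −2.31 and −2.76 on WKY 1-2, 1-3, 1-5, 4-1 and 4-2. The strains overlapped by 1 pair, since WKY 4-2 lay just below SHR 2-3. The difference was −0.50 ± 0.14 (SE, n = 5 per strain; 95% interval −0.81 to −0.18), 1.41-fold, with a limma adjusted p of 0.0719. Blocking on the slide gave −0.30.

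Cdk1, the kinase that starts mitosis, had values of −1.34, −1.51, −1.37, −2.43 and −1.85 in SHR and −1.25, −1.66, −1.83, −1.45 and −1.43 in WKY, in the same array order. SHR 3-3 was lowest of the 10 and the other SHR arrays spanned nearly the same range as WKY. Its difference of −0.18 ± 0.20 turned to 0.01 without SHR 3-3. Of its mitotic partners, Ccnb1 (cyclin B1) differed by −0.24 ± 0.17, Ccnb2 (cyclin B2) by −0.11 ± 0.20 and Ccna2 (cyclin A2, active in DNA synthesis and early mitosis) by −0.02 ± 0.11. Ccne2, the second cyclin E, differed by 0.01 ± 0.17, from a probe near background. A second Ccna2 probe gave −0.23, on the same side as the first.

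The mitotic kinases and their partners varied little. Their median difference was −0.08, 5 of 6 were negative, and their median within-strain SD of 0.14 was the smallest of the 7 role groups with a value. Tpx2, which brings Aurora A to the spindle, had the lowest p. It read −2.30, −2.68, −3.25, −2.53 and −2.84 in SHR and −2.37, −2.58, −2.77, −2.35 and −2.35 in WKY, with SHR 3-1 lowest and SHR 2-1 highest of all, so that the SHR arrays bracketed WKY. The difference was −0.24 ± 0.16 (adjusted p = 0.433, limma). Aurka (Aurora A) differed by −0.10 ± 0.09, Aurkb (Aurora B) by −0.13 ± 0.09 and Plk1, the polo-like kinase of mitotic entry, by −0.02 ± 0.14.

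Birc5 (survivin) and Cdca8 (borealin) belong to the complex that carries Aurora B to the centromere. Birc5 differed by −0.05 ± 0.08 and had the narrowest spread of the 35, with a within-strain SD of 0.08. Cdca8 was the one positive value of the group, 0.15 ± 0.10. None of these values passed the test.

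In the spindle checkpoint group all 4 measured values were negative, with a median of −0.21, and none passed the test. Cdc20 activates the ubiquitin ligase that ends metaphase. Its values were 3.26, 2.81, 2.82, 3.09 and 3.40 in SHR and 3.32, 3.05, 3.51, 3.36 and 3.28 in WKY. SHR 2-3 and 3-1 were the lowest and WKY 1-5 the highest, with the other arrays mixed. The difference was −0.23 ± 0.13 (adjusted p = 0.351, limma). Bub1, a kinase of the checkpoint, differed by −0.23 ± 0.19, Ttk, the kinase that starts checkpoint signalling, by −0.20 ± 0.12, and Mad2l1, which restrains Cdc20, by −0.02 ± 0.10. With the slide as a block Bub1 and Mad2l1 turned positive, at 0.01 and 0.15.

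In the reported fit Kif23 was the exception in sign among the spindle and cytokinesis genes, but it was read by only 1 probe and did not pass the threshold. Whether that probe reads Kif23 alone was not tested. Kif23 encodes a kinesin motor of the central spindle that is needed for the daughter cells to part. Its values were 5.51, 5.28, 5.56, 5.87 and 5.60 in SHR and 5.20, 4.97, 5.21, 5.27 and 5.16 in WKY. Every SHR array lay above every WKY array, though SHR 2-3 and WKY 4-1 nearly touched. The difference was 0.40 ± 0.11 (SE, n = 5 per strain; 95% interval 0.16 to 0.64), 1.32-fold, with a limma adjusted p of 0.0606. It kept its sign in all 22 alternatives, from 0.26 to 0.47, and was 0.29 with the slide as a block. It passed the threshold with scaling to the array median (0.43, adjusted p = 0.0404), without SHR 2-3 (0.47, adjusted p = 0.0339) and in both fits with a random block, and its adjusted p over all alternatives ran from 0.00449 to 1. Those random blocks had negative estimated correlations (−0.192 and −0.158) and called more of all genes, so their calls may be too many.

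The other 5 genes of that group had negative values. Prc1, which bundles the microtubules of the central spindle on which Kif23 acts, differed by −0.11 ± 0.15, and Kif20a, another kinesin of cytokinesis, by −0.08 ± 0.11. Kif11, the motor that pushes the spindle poles apart, differed by −0.14 ± 0.16. Nusap1, a spindle microtubule protein, differed by −0.22 ± 0.13, and Cenpf, a kinetochore protein, by −0.09 ± 0.11. In the reported fit Kif23 therefore stood alone in its sign in this group, by the probes used. A second Cenpf probe read the other way, at 0.15, and a second Prc1 probe was at −0.01. With the slide as a block, which sets SHR 2-1 alone against the WKY arrays of slide 2, these other 5 genes turned positive.

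The replication genes had 4 positive and 3 negative values, with a median of 0.05, which became −0.12 when all probes of a gene were averaged. Pcna, the clamp that holds the polymerase on DNA, had the lowest p. It read 0.51, 0.76, 0.47, 0.05 and 0.32 in SHR and 0.75, 0.73, 0.33, 0.79 and 1.19 in WKY. SHR 3-3 was lowest and WKY 4-2 highest, while SHR 2-3 lay among the WKY arrays and WKY 1-5 among the SHR arrays. The difference was −0.34 ± 0.16 (adjusted p = 0.263, limma).

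The subunits of the replicative helicase, the MCM ring, had values of both signs. Mcm3 differed by −0.30 ± 0.19 and Mcm6 by −0.14 ± 0.18, but Mcm2 by 0.05 ± 0.09, Mcm4 by 0.10 ± 0.17 and Mcm7 by 0.17 ± 0.09. Cdc6, which loads the ring onto origins, differed by 0.06 ± 0.10. None of these passed the test, and Mcm4 and Mcm7 were negative with the slide as a block, at −0.06 and −0.05. The 2 probes of Mcm2 disagreed, since the other read −0.28, whereas the second probes of Mcm3 (−0.20) and Mcm4 (0.01) were on the same side as the first.

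All 4 genes of nucleotide supply had negative values by the probe used, with the lowest median of the groups, −0.29. Tk1, the salvage enzyme thymidine kinase, read −1.24, −1.38, −1.46, −1.94 and −1.37 in SHR and −0.90, −1.12, −1.30, −1.05 and −1.14 in WKY. SHR 3-3 was far the lowest, and the strains overlapped only because WKY 1-5 lay just below SHR 2-1. The difference was −0.38 ± 0.13 (95% interval −0.66 to −0.09), 1.30-fold, with a limma adjusted p of 0.124. It was −0.26 without SHR 3-3 and −0.08 with the slide as a block.

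Tyms, thymidylate synthase, read −1.61, −1.35, −1.48, −2.37 and −1.85 in SHR and −1.24, −1.44, −1.80, −1.42 and −1.06 in WKY, a difference of −0.34 ± 0.19. Rrm2, the regulated subunit of ribonucleotide reductase, read −0.87, −0.93, −1.15, −2.41 and −1.26 in SHR and −0.84, −1.15, −1.52, −0.86 and −1.09 in WKY, a difference of −0.23 ± 0.26. For both, SHR 3-3 was the lowest SHR array and WKY 1-5 the lowest WKY array. A second Rrm2 probe, also above background on all 10 arrays, differed by 0.09 ± 0.09, on the other side. Rrm1, the large subunit of the same enzyme, differed by −0.03 ± 0.11. Without SHR 3-3 the median of the 4 was −0.10, and Rrm2 was 0.04.

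Of the transcription factors, Foxm1, which turns on the genes of mitosis, read 0.67, 0.06, −0.01, 0.13 and 0.27 in SHR and 1.02, 1.25, 0.35, 0.71 and 0.16 in WKY. WKY 1-2 and 1-3, the arrays of slide 3, were the highest, and the others overlapped between strains. The difference was −0.47 ± 0.20 (95% interval −0.91 to −0.03), 1.39-fold, with a limma adjusted p of 0.208, and blocking on the slide gave 0.27, from SHR 2-1, the highest SHR array, as the only one of its strain. A second Foxm1 probe, also above background on all 10 arrays, differed by −0.08 ± 0.09. E2f1, which turns on the genes of DNA synthesis, differed by 0.04 ± 0.11, and its second probe by 0.16.

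**Figure D2:**
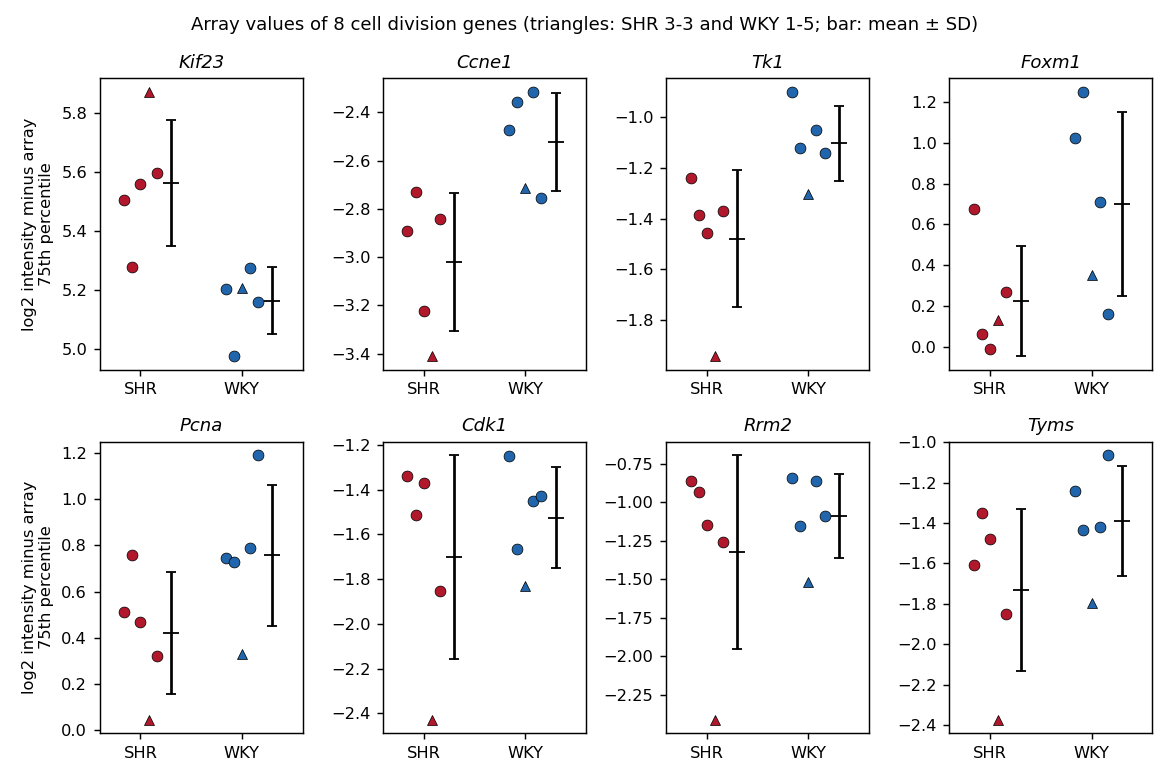
Values of 8 cell division genes on each array, as log2 intensity minus the array's 75th percentile (vertical axis, a log scale), in SHR (red) and WKY (blue), with mean ± SD; triangles mark SHR 3-3 and WKY 1-5. The strains are apart for Kif23 and overlap for the other 7, and SHR 3-3 is the lowest array for Ccne1, Tk1, Pcna, Cdk1, Rrm2 and Tyms.

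The spread between rats of a strain was wide beside the difference between strains. The median within-strain SD of the 35 genes was 0.22 log2 units, against 0.18 for all genes tested, and 21 of the 35 lay above the latter. It ranged from 0.08 for Birc5 to 0.49 for Rrm2. By role the median SD was 0.30 for cyclins, 0.29 for replication, 0.28 for nucleotide supply and 0.27 for the transcription factors, against 0.14 for the mitotic kinases.

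Much of this spread lay on single arrays. SHR 3-3 was the lowest of the 10 arrays for 17 of the 35 genes and the highest for 5. Against the mean of the other 4 SHR arrays, 10 of the 35 were lower there by at least 0.5 log2 units (28.6%), a gap shown by 8.01% of all genes. Of 122 further cell cycle genes outside the 40, 10.7% had such a gap and the median gap was 0.05. Among the 35 genes the largest gap was that of Rrm2, at −1.36, followed by Cdk1 (−0.91), Ccnb2 (−0.89), Tyms (−0.80), Bub1 (−0.75) and Kif11 (−0.73). Tk1, Plk1, Prc1 and Nusap1 made up the 10, at −0.58 to −0.53. The Ccnb2 value on SHR 3-3, −4.78, was near background, as the lowest value well above background on that array was −4.79.

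Not all of the genes were low on that array. None was higher by 0.5, where 8.38% of all genes were, but Mcm4 was higher by 0.47 and Kif23 by 0.39, its highest value of the 10 arrays. Where a gene had a second probe above background, that probe did not always show the same gap. The second Rrm2 probe was at 0.01 on SHR 3-3, where the first was at −1.36, whereas the second probes of Ccna2 (−0.98 beside −0.39) and Prc1 (−0.34 beside −0.54) were low as well. The low value of Rrm2 thus rested on 1 of its 2 probes.

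Markers of several cell types also moved on SHR 3-3. All 5 fibroblast markers and 6 of 8 duct markers were at least 0.5 lower than the mean of the other SHR arrays, with median gaps of −1.41 and −1.89, as were 3 of 6 macrophage markers (median −0.57). The mean level of the duct markers was 0.66 there and 2.33 to 2.73 on the other SHR arrays, and that of the fibroblast markers was −1.70 against −0.48 to −0.26. For acinar markers it was higher, at 4.40 against 3.85 to 4.06. The part of cell makeup, or of array quality, in the low cell division values of SHR 3-3 was not tested.

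In WKY the array with low values was WKY 1-5. There 7 of the 35 genes lay above the mean of their strain (20.0%), against 39.4% of all genes, and 5 were lower than the other WKY arrays by at least 0.5 (14.3%, against 2.90%). These were Ccnb2, Mcm3, Pcna, Rrm2 and Tyms, of which Ccnb2, Rrm2 and Tyms were also among the 10 low on SHR 3-3. Its median gap over the 35 was −0.29, against −0.05 for all genes. Over the 10 marker lists on WKY 1-5 the median gap ran from −0.56 for erythroid cells, where 2 of 4 were lower by at least 0.5, to 0.35 for endothelial cells. It was 0.22 for acinar, 0.02 for duct, −0.16 for fibroblast and −0.20 for macrophage markers, and the part of these cells was not tested.

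At the other end, SHR 2-1 and WKY 1-2 each held 28 of the 35 genes above their strain's mean (80.0%), against 57.9% and 61.0% of all genes. On WKY 4-2 the replication genes stood out. All 7 lay above the WKY mean, with gaps of 0.85 for Mcm6, 0.66 for Mcm4, 0.64 for Mcm3 and 0.54 for Pcna against the other 4 WKY arrays. The second probe of Mcm4 was 0.64 higher there and that of Mcm3 0.17 higher. The median gap of the replication genes there was 0.54, beside 0.10 for cyclins, 0.04 for mitotic kinases, 0.14 for the checkpoint, −0.02 for the spindle and 0.09 for nucleotide supply. Single genes ran both ways, with Bub1 higher by 0.34, Plk1 lower at −0.41 and the transcription factor Foxm1 at −0.67.

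**Figure D3:**
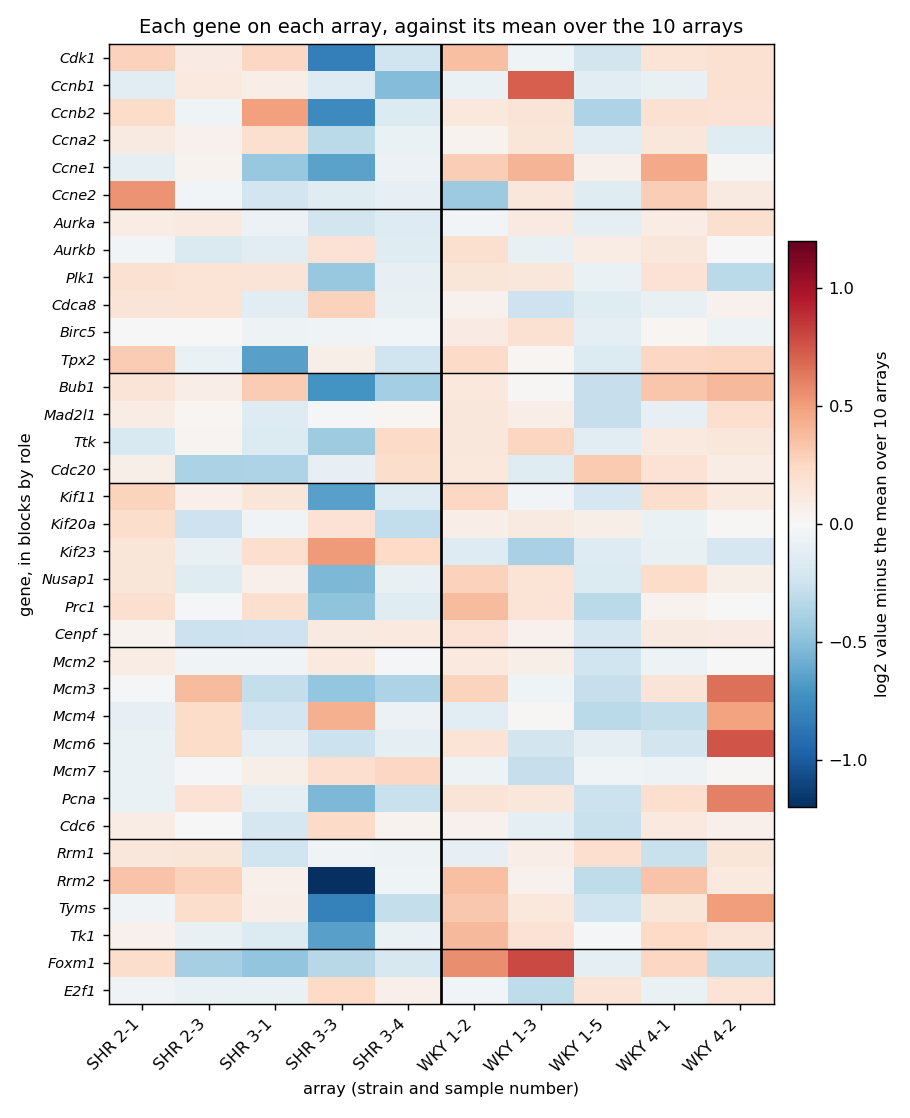
Each of the 35 cell division genes (rows, in blocks by role) on each of the 10 arrays (columns, SHR left of the line and WKY right), as log2 value minus the gene's mean over the 10 arrays; red is above and blue below. SHR 3-3 is the bluest column for Rrm2, Cdk1, Ccnb2 and Tyms yet red for Kif23 and Mcm4, and WKY 4-2 is red for Mcm3, Mcm4, Mcm6 and Pcna.

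**Figure D4:**
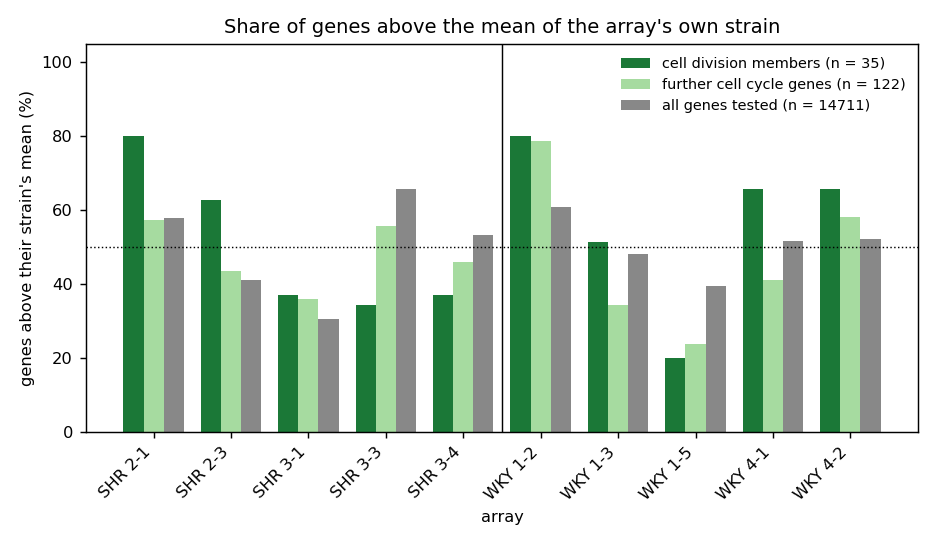
Share of genes above the mean of the array's own strain (vertical axis, percent) on each array, for the 35 cell division genes, 122 further cell cycle genes and all 14711 genes tested; the dotted line is 50%. The cell division genes range from 20.0% on WKY 1-5 to 80.0% on SHR 2-1 and WKY 1-2, while on SHR 3-3 they stand at 34.3% where all genes stand at 65.6%.

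A further list of 152 cell cycle genes outside the 40 was read from the same fit, and 122 were tested. In it 1 gene was called higher and 1 lower, and 120 did not pass. Over all genes tested 1.51% were called higher and 2.85% lower, so both counts lay below that background. The median difference was −0.05, with 71 negative and 51 positive values. Kif15, a kinesin that works beside Kif11 on the spindle, rose 1.75-fold in SHR (0.80 ± 0.11, adjusted p = 0.00133, limma). It read −2.54, −2.78, −2.42, −2.53 and −2.35 in SHR and −3.16, −3.54, −3.52, −3.22 and −3.20 in WKY, so the strains were far apart. Brca2, a gene of DNA repair, fell 1.58-fold (−0.66 ± 0.08, adjusted p = 0.000725), from −1.54, −1.61, −1.72, −1.55 and −1.52 in WKY to −2.13, −2.30, −2.15, −2.42 and −2.23 in SHR. Brca2, like Kif15, was read by only 1 probe, and here too every array of one strain lay on one side of the other. The strains were separated in this way for 1 higher and 5 lower genes of the 122. Over all genes the shares were 3.14% and 4.11%. With the slide as a block both kept their sign, at 0.78 and −0.53, and missed the threshold (adjusted p = 0.383 and 0.473, over alternatives from 4.74e-05 to 0.383 and from 2.15e-05 to 0.473).

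Within the further list the split by role gave no group with more than 1 call. At an unadjusted p below 0.05, 4 genes were higher (3.28%, against 8.05% of all genes) and 11 lower (9.02%, against 12.3%) of the 122. Of 19 brakes on division, such as Cdkn1a (0.07 ± 0.10) and Cdkn1b (0.21 ± 0.09), 0 passed, with a median of 0.04. Of 11 further cyclins, cyclin-dependent kinases and their regulators 0 passed as well. Ccnd1 was at 0.04 ± 0.08 and Cdc25b, a phosphatase that activates Cdk1, at −0.43 ± 0.12 (limma adjusted p = 0.0631). These 4 genes outside the 40 were picked after their values were seen.

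Markers of the other cells of the gland give the setting of these values. Over all genes tested 2.85% were called lower and 1.51% higher in SHR. Of 6 macrophage markers 3 were lower in SHR (Cd68, Aif1 and Fcer1g). The mean level of the 6 was −1.40 to −0.66 in SHR and −0.40 to −0.08 in WKY. Of 5 fibroblast markers 1 was lower (Col1a1), with mean levels of −1.70 to −0.26 and −0.40 to 0.32. In both lists the lowest SHR level was that of SHR 3-3. On the other SHR arrays the levels were −1.03 to −0.66 for macrophages and −0.48 to −0.26 for fibroblasts. Of 7 acinar markers 1 was higher (Oprpn) and 1 lower (Smgc), and of 5 endothelial markers 1 was higher (Plvap). No tested duct, myoepithelial and basal, plasma cell or erythroid marker passed. None of 7 T cell markers or 6 markers of B and germinal centre cells passed, and their mean levels overlapped, at −2.11 to −1.84 and −1.94 to −1.78 for T cells and −2.18 to −1.75 and −2.17 to −1.87 for B cells. Every tested marker of these lists was well above background on all 10 arrays. The part of these cells in the levels of the cell division genes was not tested.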

How the data were processed

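Messenger RNA of the submandibular gland was measured with 10 one-colour arrays, 5 SHR and 5 WKY, grouped by the strain in the labels. Agilent Feature Extraction 11.0.1.1 gave, per the file headers, a background-subtracted processed intensity for each spot, with no normalisation across arrays. A table of log2 values deposited by the authors has the same median, 7.19, in every column; its making is not given in the sources. Each log2 intensity was reduced by its array's 75th percentile. Spots marked as outliers were set to missing and spots of a probe averaged. A filter kept 29266 of 30367 probes, those well above background on 5 or more of 10 arrays. RefSeq accessions of assembly GRCr8 named 18005 probes and 15168 genes.

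The strains were compared in limma (lmFit, eBayes, no covariates), two-sided, with Benjamini-Hochberg adjustment over 14711 genes and a threshold of 0.05. The genes and lists were chosen with earlier results of these data known. Every member is named, with full statistics for the member of lowest p in each role group; of the further list, genes past the threshold. The fit was tested on simulated data. Alternatives were 4 scalings or value sources, 2 filters, the mean of a gene's probes, the slide, inferred from scan times (fixed, random, or slide 2 alone), a random block by first title number, array weights and the omission of each array. For normexp (offset 50) a mean signal had been planned and the median signal was used. A circular RNA profile named in the design text was not analysed here. Python 3.11.15 was used with matplotlib 3.10.9, pandas 2.3.3 and numpy 2.4.6, and R 4.3.3 with limma 3.58.1 and the data.table package, version 1.17.8.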

Additional observations from a re-analysis of the deposited data

Results flagged for a closer look

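In 4 of 70 groups of 5 arrays, a cell division gene had 1 array that stood apart from the other 4, in that its gap to the nearest of them, as a share of the whole range, exceeded the critical value of 0.71. Chance gives such an array in about 1 of 20 groups. Ccnb2 stood apart on WKY 1-5 (share 0.896), at −4.38 where the nearest WKY array was at −3.89. Ccne2 stood apart on SHR 2-1 (0.748), at −3.90 with the nearest at −4.48, from a probe near background. Rrm2 stood apart on SHR 3-3 (0.747), at −2.41 with the nearest at −1.26, and its second probe did not show this gap. Mcm7 stood apart on WKY 1-3 (0.739), at 0.10 with the nearest at 0.31.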

How the results depend on the processing

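The direction of many small values was not fixed by these data, while Kif23 passed the threshold in 4 of the 22 alternatives, 2 of them random-block fits with a negative correlation. No paired analysis was possible because the strains share no replicate number. The values that changed sign passed the threshold neither in the reported fit nor in the fit where they turned, and the cause was not tested. Foxm1 and Mcm7, which turned with the slide as a block, did pass with the slide as a random block, with the reported sign.

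With the slide as a block, and likewise on slide 2 alone, which hold the same contrast of SHR 2-1 with 3 WKY arrays, the median of the cell division genes was 0.11 and that of the further genes 0.038, and the values that turned were those of Cdk1 (0.23), Ccnb2 (0.23), Ccna2 (0.16), Aurka (0.033), Plk1 (0.26), Birc5 (0.045), Tpx2 (0.19), Bub1 (0.011), Mad2l1 (0.15), Kif11 (0.22), Kif20a (0.21), Nusap1 (0.11), Prc1 (0.28), Cenpf (0.037), Mcm4 (−0.059), Mcm7 (−0.053), Rrm1 (0.11), Rrm2 (0.29), Foxm1 (0.27) and E2f1 (−0.12). Calls over all genes fell to 12 higher and 32 lower (14 and 38 on slide 2 alone), and of the further genes 0 were called in each direction. On slides 1 and 3, strain and slide cannot be told apart.

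As a random block the slide (consensus correlation −0.192) gave 1350 and 2101 calls over all genes. Kif23 and Mcm7 were then the 2 higher and Ccne1, Foxm1, Pcna and Tk1 the 4 lower cell division genes, with 5 and 18 of the further genes, and Ccne2 turned to −0.15. A random block by first title number (correlation −0.158) gave 669 and 1110 calls, with Kif23 as the 1 higher and Ccne1 and Tk1 as the 2 lower cell division genes, and 2 and 7 of the further genes. With negative correlations the calls of both fits may be too many.

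Calls higher in SHR over all genes numbered 418 after quantile normalisation, 336 where arrays were scaled to their medians and 423 in the authors' values. Lower calls in the further list were 2 in each of these 3 settings and with the mean of all probes, and 3 with normexp; array weights gave 2 higher and 4 lower there. Scaling to the array median called 1 cell division gene, Kif23. Small values turned with normexp for Ccnb2 (0.039), Ccna2 (0.018), Plk1 (0.012), Mad2l1 (0.0042) and Rrm1 (0.030). They turned with quantile normalisation for Ccnb2 (0.017), Ccna2 (0.033), Plk1 (0.049), Birc5 (0.0068), Mad2l1 (0.019) and Rrm1 (0.059), and with the authors' values for Ccnb2 (0.015), Ccna2 (0.034), Plk1 (0.049), Birc5 (0.0070), Mad2l1 (0.020) and Rrm1 (0.060). Scaling to the array median turned Ccna2 (0.015), Plk1 (0.013), Mad2l1 (0.014) and Rrm1 (0.0052), array weights turned Ccna2 (0.00064), Plk1 (0.025), Mad2l1 (0.00055) and Rrm1 (0.040), and the mean of all probes turned Cenpf (0.028) and Mcm2 (−0.12).

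Leaving out 1 array at a time gave 125 to 237 higher and 218 to 512 lower calls over all genes, 0 to 1 higher cell division gene (Kif23 without SHR 2-3), and 1 to 2 higher and 1 to 3 lower further genes. Values that spanned 0 were those of Ccne2 (−0.12 to 0.090), Mad2l1 (−0.090 to 0.030), Rrm1 (−0.097 to 0.031), Cdk1 (−0.27 to 0.0066), Ccnb2 (−0.24 to 0.072), Ccna2 (−0.067 to 0.062), Plk1 (−0.10 to 0.092), Kif11 (−0.22 to 0.011), Rrm2 (−0.34 to 0.042), E2f1 (−0.034 to 0.083), Mcm2 (−0.0092 to 0.081) and Mcm6 (−0.22 to 0.026). Those of Cdk1, Ccnb2, Kif11 and Rrm2 turned only without SHR 3-3. The number of arrays, 5 per strain, limits the precision of each value.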
